A study of Canis lupus familiaris with 21 samples.

Results

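The interleukins and interleukin receptors of canine cutaneous histiocytoma (CCH) were followed across 21 libraries on a panel of 800 probes. Members were all probes whose name begins with IL and a digit, leaving aside IL1RL1 and IL2RA, which gave 60 of the 800 probes. By name, 28 of them were receptors, with an R after the number, and 32 were ligands. The name is a rough guide to function: IL1RN is an antagonist that is secreted, IL22RA2 is a soluble binding protein, and IL6ST, counted among the ligands, is the signal chain gp130.

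CCH grows from Langerhans cells in the skin of mainly young dogs, and most of these tumors vanish on their own as lymphocytes enter them. RNA came from formalin-fixed, paraffin-embedded (FFPE) tumors of dogs of many breeds, and was counted on the nCounter Canine IO Panel, in which color-coded probes report single RNA molecules without amplification. Group 1 was tumor tissue of stage 1 (5 libraries of 5 dogs aged 0.5 to 5 years, with 1 age unknown) and group 2a was tumor cell-rich tissue of stage 2 (5 libraries of 5 dogs, 0.6 to 3 years). Group 2b was lymphocyte-rich tissue of stage 2 (6 libraries of 17 dogs, 0.3 to 6 years) and group 3 was lymphocyte-rich tissue of stage 3 (5 libraries of 5 dogs, 1.5 to 9 years). In group 2b, 2 libraries held 1 dog each, 3 were pools of 4 dogs and 1 was a pool of 3, and a pool averages over its dogs. Areas had been picked by microscope, and stage 2 areas had been punched into new blocks, a step the sources describe for that stage alone. By microscope, tumor cells prevailed in group 2a and lymphocytes in group 2b, so each kind of area still held some of the other cells.

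Interleukins are secreted messengers between immune cells, and their receptors are mostly pairs or triplets of chains that are shared between cytokines. The common gamma chain, encoded by IL2RG, serves the receptors of interleukins 2, 4, 7, 9, 15 and 21, which steer the growth, survival and function of lymphocytes. IL4R can pair with that chain or with IL13RA1, which binds interleukin 13 and is typical of myeloid and epithelial cells. Roles named here are known mostly from humans and mice.

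Values were normalized counts, linear and scaled by the authors on reference genes. The factor by which a library had been multiplied was read from the spacing of its low values, and ran from 1.06 to 1.89 in group 1. It was smaller elsewhere, with 0.909 to 1.29 for group 2a, 0.923 to 1.28 for group 2b and 0.929 to 1.24 for group 3. Divided by it, the libraries held approximate totals of 484696 to 823763 counts in group 1 and 756981 to 1315188 in the other groups. DV200, the percentage of RNA fragments over 200 nucleotides, was 64.5 to 71.2 in group 1 and 70.5 to 76.9 in the others. The median probe of a library stood at 159 to 259 in groups 1 and 2a and at 324 to 363 in groups 2b and 3. CD207, which encodes the Langerhans cell protein langerin, was low, at 27.4 ± 8.06 in group 1, 19.4 ± 4.64 in group 2a, 16.4 ± 3.43 in group 2b and 16.1 ± 5.64 in group 3 (SD, n = 5, 5, 6 and 5), and was called lower in group 3 than in group 1 (log2 fold change -0.76 ± 0.27, limma, adjusted p = 0.0295). In groups 2a, 2b and 3 its mean lay under 20, the limit used below for near background. Panel probes with a mean under 20 had a median log2 fold change of -0.44 between groups 3 and 1. The part of the larger factors of group 1 in the call of CD207 was not tested. CDH1, the E-cadherin of Langerhans cells and keratinocytes, stood at 334 ± 328, 180.4 ± 118, 119 ± 69.5 and 219 ± 129 in groups 1, 2a, 2b and 3 and was not called between kinds of area (adjusted p = 0.453 and 0.758). Other Langerhans and dendritic cell genes went both ways. CCR7, CD83, IRF8 and XCR1 were called higher in group 2b than in 2a and in group 3 than in 1, and FLT3 and CCR6 were called lower in both. Summed over a library, the T cell genes reached 677 to 11611 (group 1), 3136 to 8375 (group 2a), 14497 to 25638 (group 2b) and 16242 to 26135 (group 3).

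Of the 60 members, 7 had a mean under 20 over the 21 libraries and were treated as near background, against 49 of the 800 probes of the whole panel. These were the ligands IL11 (11.2), IL19 (11.8), IL22 (15.3), IL26 (17.3) and IL3 (10.4), and the receptors IL22RA1 (13.4) and IL5RA (8.13). The other 27 ligands and 26 receptors stood higher. Counts of different probes are not compared here, since probes can differ in efficiency.

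Lymphocyte-rich tissue was compared with tumor cell-rich tissue first within stage 2 (group 2b minus group 2a) and then between stages 3 and 1 (group 3 minus group 1). These comparisons share no library, but in the second the stage differs along with the kind of area. Both came from 1 fit of all 21 libraries with a shared estimate of the spread per probe. They are therefore not independent tests, and leaving out a library of any group can change a call in either. Each was tested with limma on log2(value + 1), with p values adjusted by Benjamini-Hochberg over all 800 probes and a call at an adjusted p of at most 0.05. The replicates were separate tumors or pools. In bulk tissue, fewer cells of a type and less RNA per cell cannot be told apart.

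Within stage 2, 16 of the 60 members were called (26.7%), against 38.8% of all probes. Higher in group 2b were 5 of the 32 ligands (IL2, IL18, IL21, IL32, IL34) and 5 of the 28 receptors (IL21R, IL23R, IL2RB, IL2RG, IL4R), and lower were 6 receptors (IL10RA, IL13RA1, IL18R1, IL18RAP, IL5RA, IL7R) and no ligand. So 10 members were called higher, where 32.2% of all probes were, and 6 lower, where 6.5% of all probes were. The median log2 fold change of the members was 0.06, and that of all probes 0.23. Between stages 3 and 1, 15 members were called (25%), against 39.9% of all probes. The 8 that were higher in group 3 were the ligands IL21, IL32 and IL34 and the receptors IL12RB1, IL21R, IL2RB, IL2RG and IL4R, beside 29.4% of all probes. The 7 that were lower were the ligands IL4, IL10, IL22, IL24 and IL29L and the receptors IL10RA and IL13RA1, beside 10.5% of all probes. The median was -0.29 for the members and 0.14 for all probes.

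**Figure D1:**
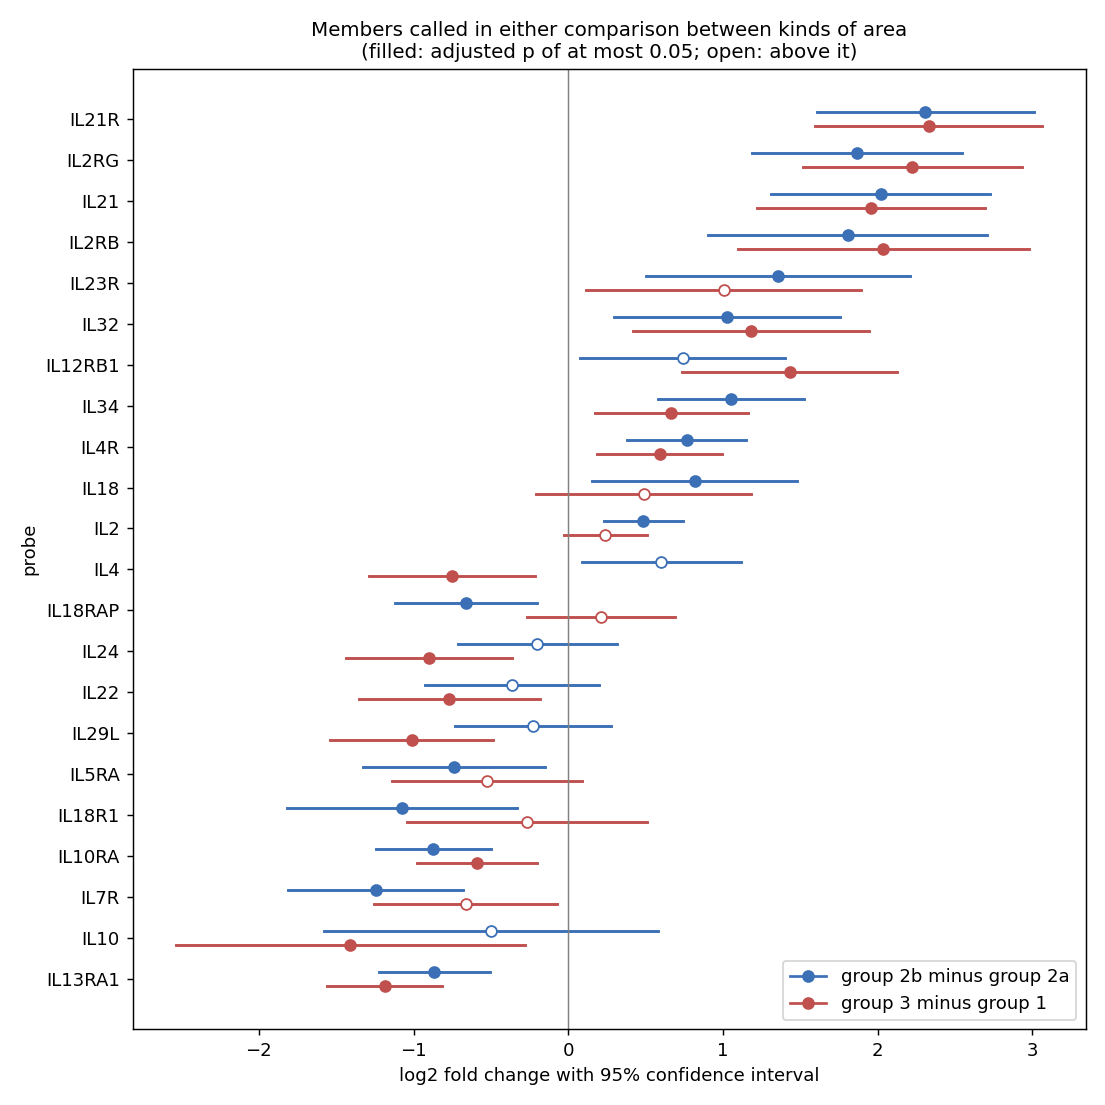
Log2 fold changes (x axis) with 95% confidence intervals for the 22 members called in either comparison (y axis), in blue for group 2b minus group 2a and in red for group 3 minus group 1; filled points are called. IL21R, IL2RG, IL21 and IL2RB lie near 2 in both comparisons, while IL13RA1 and IL10RA are called below 0 in both.

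Of the 10 members called higher within stage 2, 7 were also called higher between stages 3 and 1, where they made up 7 of 8: IL21, IL21R, IL2RB, IL2RG, IL32, IL34 and IL4R. Of the 6 called lower within stage 2 and the 7 called lower between stages 3 and 1, the same 2 were IL10RA and IL13RA1. Over all probes, 213 of 258 and of 235 higher calls were shared, and 34 of 52 and of 84 lower calls.

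The deposited scaling bears on these counts. When each library was shifted to an equal median, the whole panel moved from a median log2 fold change of 0.23 to -0.48 within stage 2 and of 0.14 to -0.52 between stages 3 and 1, and the members split into 4 higher and 25 lower in the first comparison (13.9% and 38.2% of all probes) and 5 higher and 34 lower in the second (14.4% and 40.9%). With quantile normalization the members split into 5 higher and 11 lower (17.2% and 23.6% of all probes), and into 5 higher and 20 lower (20.2% and 25.2%). Called higher under the deposited scaling and both others were IL21, IL21R, IL2RB and IL2RG in both comparisons, with IL12RB1 added between stages 3 and 1. Called lower under all 3 scalings were IL10RA, IL13RA1, IL18R1, IL18RAP and IL7R within stage 2, and IL4, IL10, IL10RA, IL13RA1, IL24 and IL29L between stages 3 and 1.

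**Figure D2:**
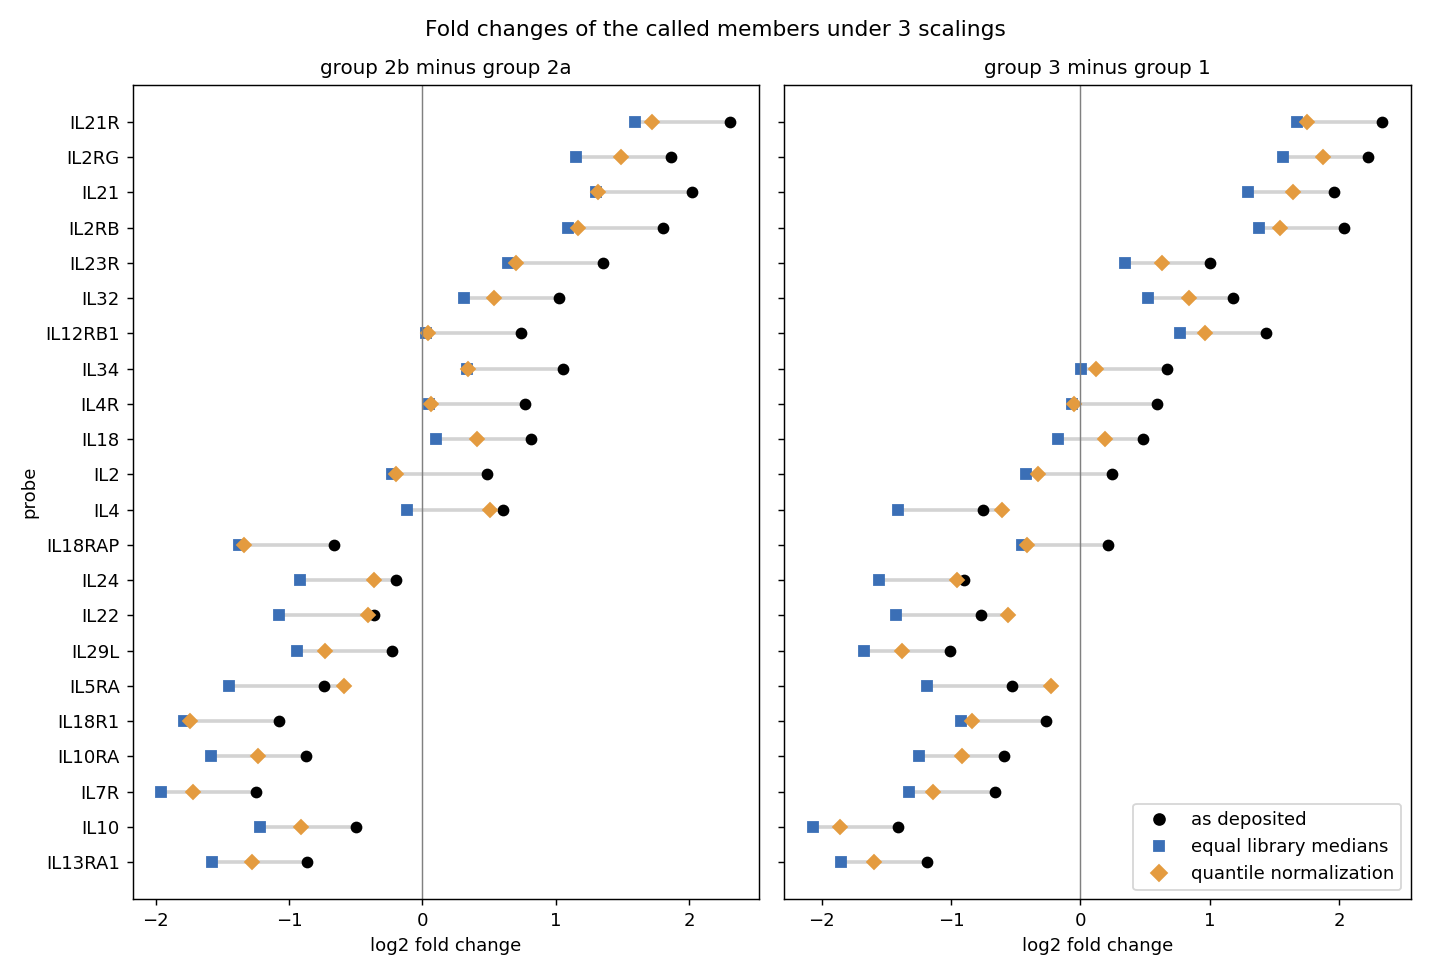
Log2 fold changes (x axis) of the 22 called members (y axis) under 3 scalings: circles for the values as deposited, squares for equal library medians and diamonds for quantile normalization. IL21R, IL2RG, IL21 and IL2RB stay above 1 under all 3 in both panels, whereas IL2 lies above 0 as deposited and below 0 under the other 2.

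IL21, a cytokine made mainly by helper T cells that acts on B and cytotoxic T cells, was among the higher ligands. It measured 33.6, 46.9, 33.2, 40.8 and 51.8 normalized counts in the 5 libraries of group 2a, and it ran from 117 over a median of 177 to 219.9 in group 2b. Group 1 held 20.1, 76.3, 71.6, 47.8 and 26.5, and group 3 held 89.3, 130.5, 169, 213 and 322. No library of a lymphocyte-rich group reached down to any library of a tumor cell-rich group. The log2 fold change was 2.02 ± 0.34 (SE, limma, adjusted p = 0.000138) within stage 2 and 1.96 ± 0.35 (adjusted p = 0.000318) between stages 3 and 1. Its receptor chain IL21R measured 144, 96.1, 191, 137 and 237 in group 2a and 598 to 883 (median 776) in group 2b. Its values were 38.1, 236, 179.9, 145 and 104 in group 1 and, in group 3, 829.8, 529.7, 640.1, 648 and 450.4. The groups did not overlap here either. With log2 fold changes of 2.31 ± 0.34 (limma, adjusted p = 3.65e-05) and 2.33 ± 0.35 (adjusted p = 8.31e-05), equal to 4.95-fold and 5.03-fold, IL21R had the highest fold change among the members in both comparisons as deposited. With equal library medians its log2 fold changes were 1.59 and 1.67, and with quantile normalization 1.72 and 1.75, the last below that of IL2RG (1.88).

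The common gamma chain IL2RG, which completes the IL21R complex, followed the same order. It measured 648, 533, 796, 1684 and 1926 in group 2a and 2136 to 4978 (median 3936) in group 2b. In group 1 the values were 404, 801, 846, 613 and 614, and in group 3 2018, 3844, 3542, 3427 and 2449. Replicates 4 and 5 of group 2a lay close under the lowest library of group 2b, and no values overlapped. Its log2 fold changes were 1.87 ± 0.32 (limma, adjusted p = 0.00018) and 2.22 ± 0.34 (adjusted p = 8.78e-05). IL2RB, the signal chain that interleukins 2 and 15 share, measured 184, 210.1, 193, 157 and 447 in group 2a and 589.8 to 1164 (median 728) in group 2b. Group 1 held 79.3, 188, 679, 507 and 125, and group 3 held 1117, 1168, 587, 1022 and 975. Groups 2a and 2b were apart, whereas replicate 3 of group 1 lay above replicate 3 of group 3. The log2 fold changes were 1.81 ± 0.43 (limma, adjusted p = 0.00248) and 2.04 ± 0.45 (adjusted p = 0.00147). IL21, IL21R, IL2RG and IL2RB were called in each of the 21 fits that left out 1 library, group 1 replicate 1 included, which had the lowest sum of T cell genes. T cell genes, 17 of 18 of which were called higher in both comparisons, moved in the same direction, and their part in these levels was not tested. The differences of the 2 comparisons for these genes, taken as group 3 minus group 1 less group 2b minus group 2a, had 95% intervals of -1.09 to 0.96 for IL21, -0.99 to 1.04 for IL21R, -0.62 to 1.33 for IL2RG and -1.07 to 1.53 for IL2RB.

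**Figure D3:**
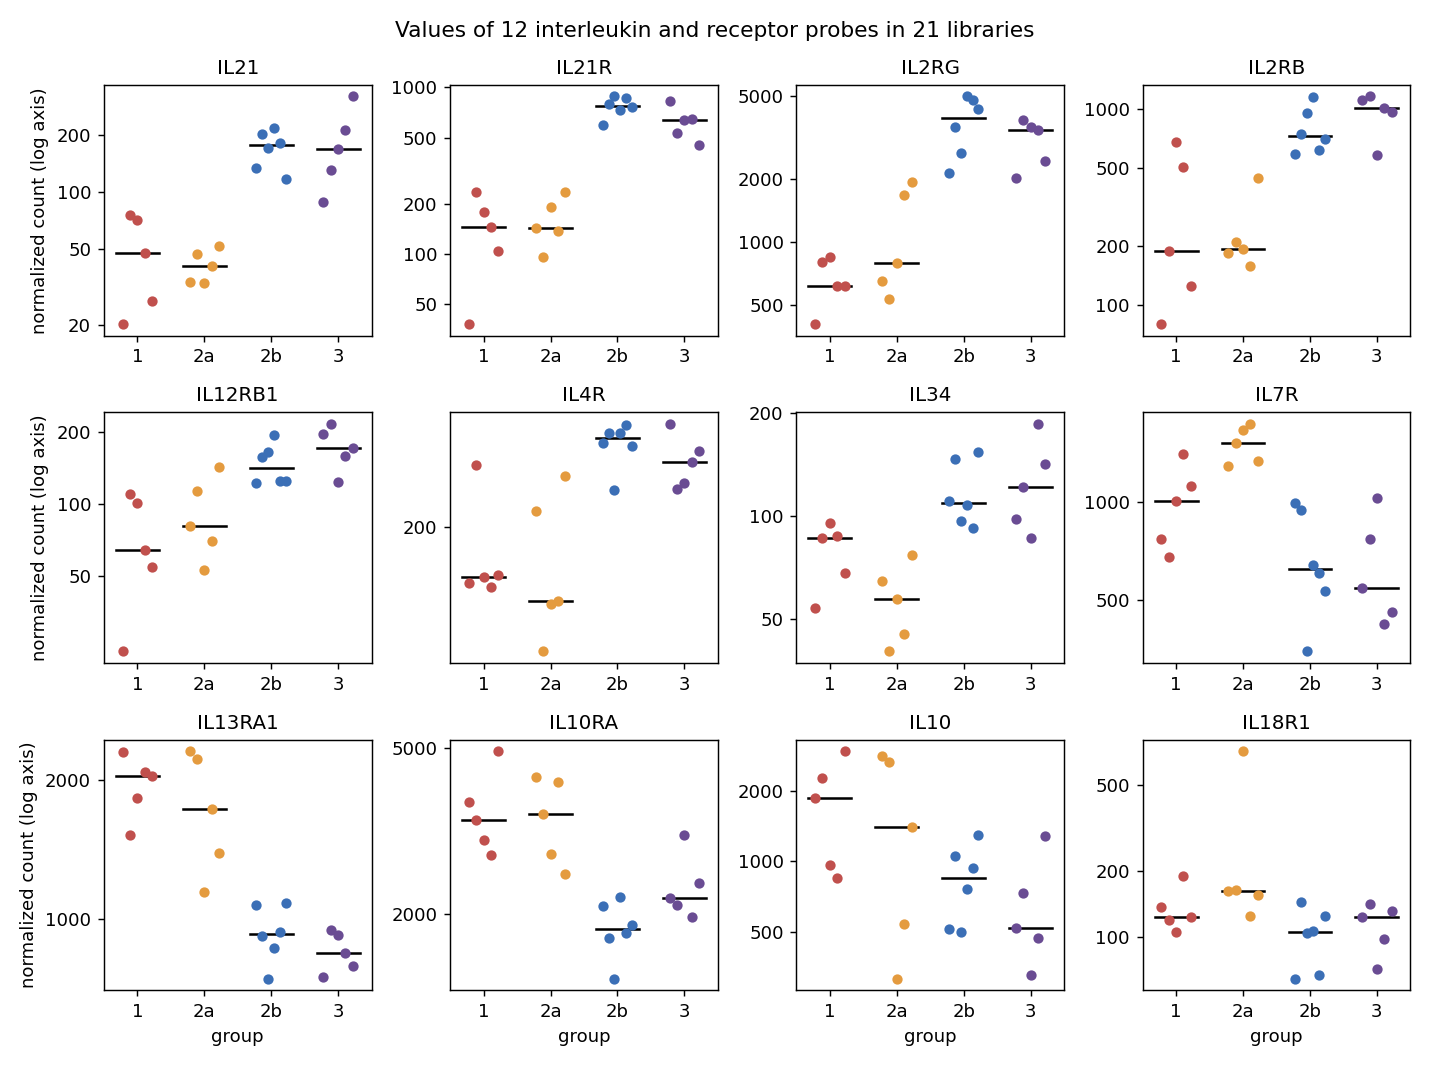
Normalized counts (y axes, log scale) of 12 members in each of the 21 libraries by group (x axes); points are libraries and lines are group medians. IL21, IL21R and IL2RG stand higher in every library of groups 2b and 3 than in any library of groups 1 and 2a, and IL13RA1 stands lower in every one; a single library of group 2a carries IL18R1 at 716.

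The ligands of IL2RB are IL2 and IL15. IL2, a growth factor of T cells, measured 376, 313, 296, 281 and 349 in group 2a and 363 to 559 (median 454) in group 2b, with some overlap. In group 1 it measured 296, 356, 362, 382 and 337, and in group 3, whose libraries lay very close together and above all of group 1, 419, 400.3, 410.2, 404 and 407. The log2 fold change within stage 2 was 0.48 ± 0.12 (limma, adjusted p = 0.00384) and became -0.23 with equal library medians and -0.20 with quantile normalization. Across stages 3 and 1 it was 0.24 ± 0.13 (adjusted p = 0.148) and became -0.42 (adjusted p = 0.0136) and -0.33 (adjusted p = 0.0369), so the direction of IL2 depends on the scaling. IL15, which sustains cytotoxic T and natural killer cells, was at 906 ± 253 in group 1, 574 ± 132 in group 2a, 572 ± 137 in group 2b and 711 ± 176 in group 3 (SD, n = 5, 5, 6 and 5) and as deposited was not called in either comparison (limma, adjusted p = 0.984 and 0.304). Within stage 2, IL15 was called lower with equal library medians (-0.72, adjusted p = 0.00543) and with quantile normalization (-0.53, adjusted p = 0.0459). Values of IL15 under these scalings between stages 3 and 1 are not given here. Its own receptor chain IL15RA stood at 182 ± 106, 113 ± 75.7, 193 ± 66.2 and 165 ± 50.5 in the same order and as deposited was not called either (adjusted p = 0.0942 and 0.998).

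IL7R, the interleukin 7 receptor chain of naive and memory T cells, which dendritic cells can also carry as part of the TSLP receptor, ran against its partner IL2RG. It measured 1294, 1526, 1678, 1752 and 1347 in group 2a and 345 to 992 (median 620.4) in group 2b, with all of group 2b below all of group 2a. Group 1 held 768, 675, 1008, 1408 and 1124 and group 3 held 542, 771, 1029, 419.8 and 459, so these groups overlapped. The log2 fold change within stage 2 was -1.25 ± 0.27 (limma, adjusted p = 0.00121), which is 0.422-fold. Between stages 3 and 1 it was -0.66 ± 0.28 (adjusted p = 0.0703), and it was called without group 1 replicate 2 (adjusted p = 0.0399), without group 2b replicate 3 (0.0459) or without group 3 replicate 3 (0.0203). It was also called with equal library medians (-1.32, adjusted p = 0.00135) and with quantile normalization (-1.14, adjusted p = 0.00645). The ligand IL7 was not called in any comparison as deposited.

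A ratio of probes within a library does not depend on a factor by which all values of that library are multiplied. Quantile normalization is not such a factor, and the ratios were not computed under it. The pairs given here were chosen after their values had been seen, so they are a description without a test. The ratio of IL2RG to IL7R had medians of 0.546, 0.501, 7.76 and 4.99 in groups 1, 2a, 2b and 3. Its highest value in the tumor cell-rich groups was 1.43 and its lowest in the lymphocyte-rich groups was 2.15. The ratio of IL21R to IL7R had medians of 0.103, 0.111, 1.28 and 0.981 in groups 1, 2a, 2b and 3.

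**Figure D4:**
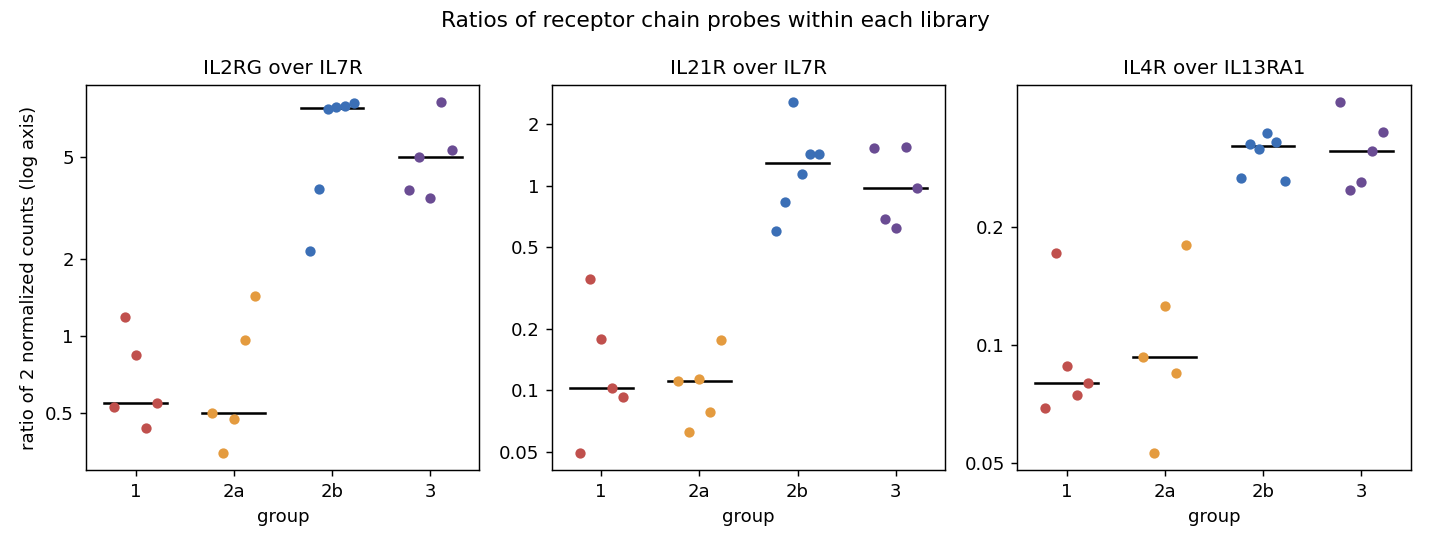
Ratios of the normalized counts of 2 receptor chain probes (y axes, log scale) in each library by group (x axes); points are libraries and lines are group medians. In each panel all libraries of groups 2b and 3 lie above all libraries of groups 1 and 2a.

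The receptor chains of interleukins 4 and 13 differed in direction under the deposited scaling. IL4R measured 215, 117, 144, 146 and 249 in group 2a and 235 to 310.4 (median 294) in group 2b, and only replicate 5 of group 2a reached into the range of group 2b. The libraries of group 1 held 158, 261, 162, 155 and 163, and those of group 3 held 313, 236, 242, 266 and 278. The log2 fold changes were 0.77 ± 0.19 (limma, adjusted p = 0.0027) within stage 2 and 0.59 ± 0.19 (adjusted p = 0.0209) between stages 3 and 1; they were 0.05 and -0.07 with equal library medians and 0.06 and -0.05 with quantile normalization, so that no rise of IL4R was called under either and the direction between stages 3 and 1 turned. The second call was also lost without group 3 replicate 1 (0.53, adjusted p = 0.0535). IL13RA1 measured 2304, 2214, 1142, 1726 and 1386 in group 2a and 743 to 1082 (median 929) in group 2b. Levels in group 1 were 2289, 1519.8, 1828, 2079 and 2041, and in group 3 they were 749, 947, 925, 845 and 792. All lymphocyte-rich libraries lay below all tumor cell-rich ones, with log2 fold changes of -0.87 ± 0.17 (limma, adjusted p = 0.000503) and -1.19 ± 0.18 (adjusted p = 8.31e-05). IL13RA1 was called lower in each of the fits that left out 1 library. The ratio of IL4R to IL13RA1 had medians of 0.0799, 0.0932, 0.322 and 0.314 in groups 1, 2a, 2b and 3. Its highest value in groups 1 and 2a was 0.1797 and its lowest in groups 2b and 3 was 0.249. IL13RA2, a decoy receptor of interleukin 13, stood at 52.6 ± 23.5, 43.2 ± 27.2, 27.4 ± 9.83 and 27.8 ± 7.6 in groups 1, 2a, 2b and 3 and was not called as deposited (adjusted p = 0.392 and 0.13). Within stage 2, IL13RA2 was called lower with equal library medians (-1.19, adjusted p = 0.0167) but not with quantile normalization (-0.77, adjusted p = 0.0931). Values of IL13RA2 under these scalings between stages 3 and 1 are not given here.

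The ligands of these chains were low. IL13, made by helper T cells and innate lymphoid cells, had group means between 20.9 and 25.7 and was not called as deposited (limma, adjusted p = 0.856 and 0.333). Within stage 2, IL13 was called lower with equal library medians (-0.78, adjusted p = 0.00987) but not with quantile normalization (-0.20, adjusted p = 0.451). Values of IL13 under these scalings between stages 3 and 1 are not given here. IL4, the cytokine of type 2 helper T cells, measured 18, 32.2, 33, 23.1 and 41.7 in group 1 and 12.9, 14.5, 17.1, 15.8 and 13.6 in group 2a. It ran from 16.4 to 34.8 (median 22.9) in group 2b and measured 17.4, 27.6, 11.9, 13 and 16.2 in group 3. As deposited, all libraries of group 2a lay below all of group 1, while groups 1 and 3 overlapped. Divided by the factor of each library, and so without correction for the amount of RNA counted, groups 1 and 2a overlapped too. The values were about 14 to 22 and 10 to 17 counts. Between stages 3 and 1 its log2 fold change was -0.75 ± 0.26 (adjusted p = 0.0264), and the call was lost without any one of group 1 replicates 2, 3 and 5 or group 3 replicates 3 and 4 (adjusted p from 0.0501 to 0.078). Within stage 2 its log2 fold change was 0.60 ± 0.25 and was not called (adjusted p = 0.0603). There it turned to -0.11 with equal library medians, and it was called in 7 of 30 alternatives, among them quantile normalization (0.50, adjusted p = 0.0363) and the fits without group 1 replicate 1, group 2b replicate 4 or 6, or group 3 replicate 2 (adjusted p from 0.0389 to 0.0462).

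Interleukin 10 restrains macrophages, dendritic cells and T cells through IL10RA and a second chain, and IL10RA was called lower in both comparisons and IL10 between stages 3 and 1. IL10RA measured 4274, 3478, 2789, 4157 and 2502 in group 2a and 1402 to 2199 (median 1846) in group 2b. In group 1 it measured 3715, 3364, 3014, 2781 and 4930.3, and in group 3 2185, 2106, 3102, 1974 and 2379.6. Groups 2a and 2b did not overlap, and in the other comparison replicate 3 of group 3 lay among the libraries of group 1. The log2 fold changes were -0.87 ± 0.18 (limma, adjusted p = 0.000715) and -0.59 ± 0.19 (adjusted p = 0.0172), and the second was not called without group 1 replicate 5 (-0.46, adjusted p = 0.0597). IL10 varied widely, at 1856, 2253, 964, 847 and 2945 in group 1 and 2810.1, 2645, 316, 538 and 1404 in group 2a. It ran from 499.5 to 1289.9 (median 846) in group 2b and measured 521, 731, 329, 472 and 1282 in group 3. The groups overlapped in both comparisons. IL10 was lower in group 3 than in group 1 by a log2 fold change of -1.41 ± 0.54 (limma, adjusted p = 0.044). This call was lost in 9 of the 21 fits that left out 1 library, namely group 1 replicate 1, 2 or 5, group 2b replicate 4 or 5, or group 3 replicate 1, 2, 3 or 4 (adjusted p from 0.0516 to 0.116). Within stage 2 the log2 fold change of IL10 was -0.50 ± 0.52 and was not called (adjusted p = 0.495).

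Interleukin 18, a member of the interleukin 1 family that acts on T and natural killer cells, binds IL18R1, and IL18RAP completes the signaling receptor. IL18 measured 2091, 1984, 3016, 2388 and 1943 in group 2a and 2213 to 6692 (median 4133) in group 2b, with overlap. In group 1 it measured 2467, 1538, 3049, 3728 and 1527, and in group 3 2381, 3261, 3819, 6709.7 and 1792. Within stage 2 the log2 fold change was 0.82 ± 0.32 (limma, adjusted p = 0.0485). It was not called in 14 of the 21 fits with 1 library left out, namely group 1 replicate 1 or 3, group 2a replicate 1, 2, 4 or 5, any of group 2b replicates 2 to 6, or group 3 replicate 1, 2 or 3 (adjusted p from 0.0504 to 0.115). It was not called under the other scalings either (0.10 and 0.41). In the other comparison the log2 fold change was 0.49 ± 0.33 and was not called (adjusted p = 0.26). Both receptor chains went the other way within stage 2. IL18R1 measured 163, 163, 716, 125 and 155 in group 2a and 63.9 to 145 (median 105) in group 2b, so that replicate 3 of group 2a stood far above all other libraries. Its log2 fold change was -1.07 ± 0.36 (limma, adjusted p = 0.0219) and became -0.63 (adjusted p = 0.0537) without that library. IL18RAP measured 185, 159.8, 233, 177 and 125 in group 2a and 61.9 to 136 (median 123) in group 2b. Its log2 fold change was -0.66 ± 0.22 (adjusted p = 0.0222), and the call was lost without group 2a replicate 3 (-0.55, adjusted p = 0.0634) or group 2b replicate 5 (-0.50, adjusted p = 0.0558). Between stages 3 and 1 neither chain was called, with log2 fold changes of -0.26 ± 0.37 for IL18R1 (adjusted p = 0.608) and 0.21 ± 0.23 for IL18RAP (adjusted p = 0.495), the latter turning to -0.45 and -0.41 under the other scalings. The 2 genes are direct neighbors among the protein-coding genes of the UU_Cfam_GSD_1.0 assembly.

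Interleukins 12 and 23 share the chain IL12RB1, which pairs with IL12RB2 for the first and with IL23R for the second, and they direct helper T cells toward interferon gamma and interleukin 17. IL12RB1 measured 24.3, 110.2, 101, 64.2 and 55.0 in group 1 and 197, 217, 124, 159 and 172 in group 3, with no overlap. In group 2a it measured 81.5, 114, 53.3, 70.2 and 144, and in group 2b it ran from 122 to 195 (median 141). Between stages 3 and 1 the change was 1.43 ± 0.33 (log2, limma, adjusted p = 0.00212). Within stage 2 it was 0.74 ± 0.32 and not called (adjusted p = 0.0729), although it was called without group 1 replicate 1 (adjusted p = 0.0238) or group 2a replicate 5 (0.92, adjusted p = 0.0326). With equal library medians it was 0.02 (adjusted p = 0.941) and with quantile normalization 0.04 (adjusted p = 0.925). The difference between the 2 comparisons was not called for any member, as given with the stage comparisons. IL23R measured 44, 25.7, 42.2, 29.4 and 40.0 in group 2a and 70.0 to 122 (median 88.1) in group 2b, without overlap. Group 1 held 8.46, 78, 42.2, 52.7 and 62.5 and group 3 held 99.2, 48.7, 131, 100.3 and 52.9, with overlap. Its log2 fold change was 1.36 ± 0.41 (limma, adjusted p = 0.0121) within stage 2 and 1.00 ± 0.43 (adjusted p = 0.069) between stages 3 and 1. The latter was called without group 1 replicate 2 (1.24, adjusted p = 0.0282) or group 3 replicate 2 (1.18, adjusted p = 0.0463). Neither was called under the other scalings. IL12RB2 stood at 41.9 ± 20.7, 20.03 ± 7.03, 29.2 ± 13.4 and 29.3 ± 13.5 in groups 1, 2a, 2b and 3 and was not called as deposited (adjusted p = 0.31 and 0.306).

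The subunits of the ligands themselves were not called as deposited. IL12A, the small subunit of interleukin 12, stood at 50.9 ± 13.9, 46.9 ± 16.4, 59.9 ± 12.4 and 59.3 ± 32.5 in groups 1, 2a, 2b and 3. IL12B, which interleukins 12 and 23 share, stood at 20.8 ± 12, 14.5 ± 8.3, 32.3 ± 23.6 and 20.8 ± 11.6, and IL23A at 27.2 ± 9.26, 18.2 ± 4.23, 18.9 ± 7.54 and 19.6 ± 7.94. These 3 had adjusted p values of 0.321, 0.159 and 0.975 within stage 2 (limma). Their adjusted p values between stages 3 and 1 and under the other scalings are not given here. The direction of IL12A turned under both other scalings in both comparisons. That of IL12B turned between stages 3 and 1 with equal library medians. EBI3, which partners with the subunits encoded by IL27 or IL12A, was higher in both comparisons as deposited (1.33 ± 0.37, adjusted p = 0.00764, and 1.86 ± 0.39, adjusted p = 0.000854). Its values under the other scalings are not given here.

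IL34 is the alternative ligand of the receptor CSF1R and, in mice, sustains Langerhans cells. It measured 64.7, 40.2, 57.3, 45.3 and 77.3 in group 2a and 92.2 to 154 (median 109) in group 2b, without overlap. Values of 54, 86.5, 95.5, 87.3 and 68.2 were found in group 1, and in group 3 98, 122, 86.3, 187 and 143, where replicate 3 lay within the range of group 1. The log2 fold changes were 1.05 ± 0.23 (limma, adjusted p = 0.0011) and 0.67 ± 0.24 (adjusted p = 0.0304). The second call was lost without group 1 replicate 1 or 5 or group 3 replicate 2, 4 or 5 (adjusted p from 0.0501 to 0.102). With equal library medians the values were 0.34 and 0.01, and neither was called. CSF1R itself was not called (0.26 ± 0.27, adjusted p = 0.5, and 0.42 ± 0.28, adjusted p = 0.251).

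IL32, known from humans as a cytokine of T and natural killer cells, measured 47.9, 20.1, 46.2, 22.6 and 36.4 in group 2a and 45.5 to 138 (median 53.5) in group 2b, with slight overlap. In group 1 it measured 19, 49.2, 62.4, 75.8 and 53.1, and in group 3 108, 94, 153, 93.8 and 104, all above group 1. The log2 fold change of 1.03 ± 0.35 within stage 2 (limma, adjusted p = 0.0252) was no longer called without group 2a replicate 2 or 4 or group 2b replicate 1 or 3 (adjusted p from 0.056 to 0.0801). From stage 1 to stage 3 it was 1.18 ± 0.36 (adjusted p = 0.0146), called in each fit with 1 library left out. Under the other scalings neither was called, the nearest being an adjusted p of 0.0512 with quantile normalization between stages 3 and 1.

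Interleukin 1 starts inflammation, and several genes of its circuit varied widely between tumors of the same group. IL1A, the first of its ligands, did so less, at 97.3 ± 30, 60.6 ± 11.3, 63.9 ± 24.4 and 62.2 ± 7.1 in groups 1, 2a, 2b and 3; it was not called (limma, adjusted p = 0.942 and 0.0687) but was called lower with equal library medians (-0.69 and -1.24, adjusted p = 0.0225 and 0.000559) and with quantile normalization (-0.60 and -1.17, adjusted p = 0.0176 and 0.000224). IL1B measured 29.6, 188, 18.4, 13.2 and 37.9 in group 1 and IL6, its usual downstream cytokine, 203, 1496, 108, 51.1 and 83.4, so that replicate 2 held the highest value of both. Medians of IL6 in groups 2a, 2b and 3 were 95.5, 119 and 104. IL1R2, a decoy receptor that takes up interleukin 1, measured 1566, 2369.6, 182, 109 and 2389 in group 1 and 104, 338, 144, 80.8 and 283 in group 3, with overlap. Its log2 fold change of -2.11 ± 0.94 was not called (limma, adjusted p = 0.0842), but was called without group 1 replicate 3 (-2.60, adjusted p = 0.0409) or replicate 4 (-2.78, adjusted p = 0.0224) and under both other scalings (adjusted p = 0.0178 and 0.0256). IL1RN, the antagonist, measured 2569.6, 1102, 367, 648 and 929 in group 2a and 288 to 623 (median 453) in group 2b. Its log2 fold change of -1.07 ± 0.43 was not called (limma, adjusted p = 0.054); it was called without group 1 replicate 3 or 5, group 2a replicate 3 (-1.40, adjusted p = 0.0116) or group 3 replicate 2, and under both other scalings (adjusted p = 0.00291 and 0.00562). IL1R1, the signaling receptor, stood at 1109 ± 510, 846 ± 318, 856 ± 242 and 797 ± 248 in groups 1, 2a, 2b and 3. Its accessory chain IL1RAP stood at 1128 ± 731, 1361 ± 1317, 1107 ± 399 and 802 ± 598. As deposited, neither IL1R1 nor IL1RAP was called, and nor were the interleukin 6 chains IL6R (group means 96.6 to 112) and IL6ST (767 to 979.8). Within stage 2, IL1R1 was called lower with equal library medians (-0.65, limma, adjusted p = 0.0406) but not with quantile normalization (-0.37, adjusted p = 0.284). Other values of these 4 chains under the other scalings are not given here.

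**Figure D5:**
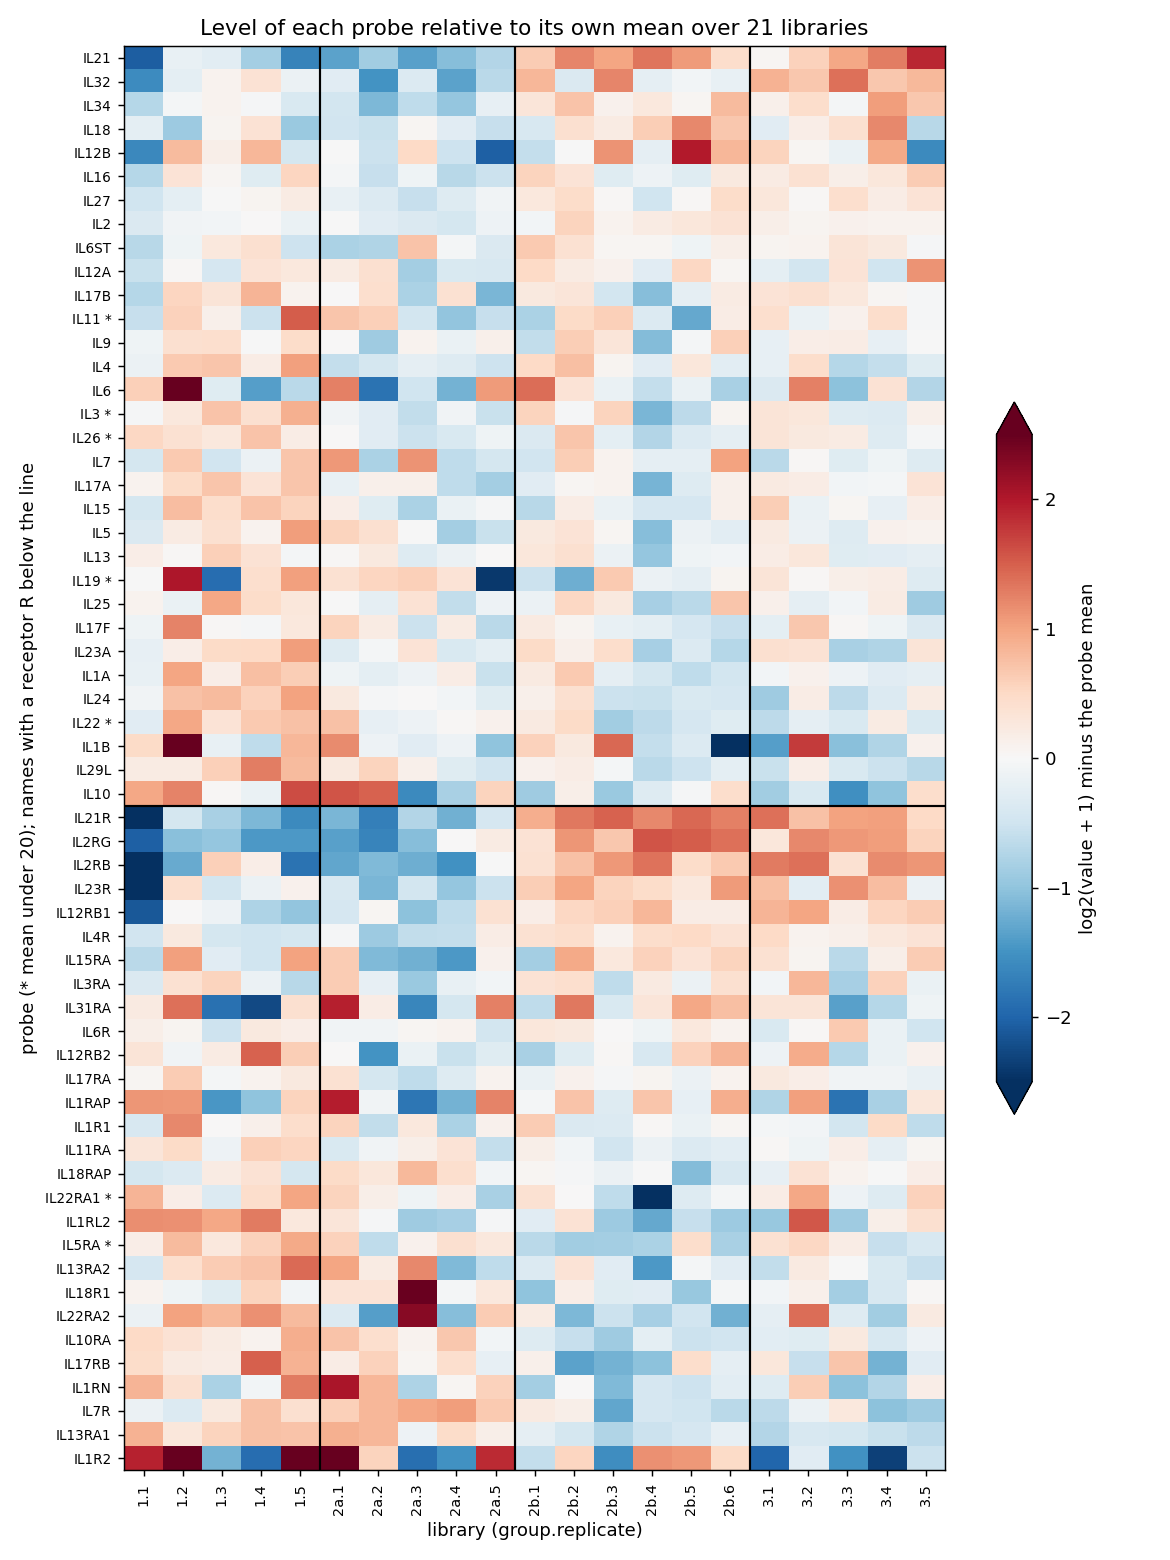
Level of each of the 60 members (y axis; ligands by name above the line, receptors below it, * for a mean under 20) in the 21 libraries (x axis), as log2(value + 1) minus the mean of that probe; red is higher and blue lower. The rows of IL21R, IL2RG and IL2RB are mostly blue in tumor cell-rich libraries and red in lymphocyte-rich ones. Exceptions above the probe mean are replicates 3 and 4 of group 1 for IL2RB and replicates 4 (barely) and 5 of group 2a for IL2RG. Rows such as IL1R2, IL31RA and IL1RAP vary from tumor to tumor within groups.

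Several low ligands stood lower in group 3 than in group 1, in step with the larger factors of group 1. IL24, a cytokine of the interleukin 10 family, measured 24.3, 44.1, 45.9, 39.5 and 53.1 in group 1 and 13.6, 29.9, 16.2, 20.4 and 30.2 in group 3 (log2 fold change -0.90 ± 0.26, limma, adjusted p = 0.00861). IL29L, which by its symbol resembles interferon lambda, measured 48.7, 49.2, 64.2, 104 and 73.9 against 28.5, 47.5, 32.4, 28.8 and 25.9, without overlap (-1.01 ± 0.25, adjusted p = 0.00355). IL22, which acts on epithelium and is near background here, had a log2 fold change of -0.77 ± 0.28 (adjusted p = 0.0357), and its call was lost without group 1 replicate 2, 4 or 5 or group 3 replicate 1, 3 or 5 (adjusted p from 0.0615 to 0.0925). Divided by the factor of each library and rounded, the medians of groups 1 and 3 were 25 and 22 counts for IL24, 39 and 30 for IL29L, 18 and 14 for IL4 and 13 and 10 for IL22. These counts are approximate, since whole counts were not certain in every library, and carry no correction for the amount of RNA counted. Over the panel, the 49 probes with a mean under 20 had a median log2 fold change of -0.44 and the 103 probes between 20 and 50 one of -0.23, against 0.29 for the 648 others. The part of the scaling factor in these calls was not tested. IL5RA, the interleukin 5 receptor of eosinophils and near background, was called lower within stage 2 (-0.74 ± 0.28, adjusted p = 0.044) at approximate unscaled medians of 9 counts in group 2a and 4 in group 2b. That call was lost without group 1 replicate 4, group 2a replicate 1, 3, 4 or 5, or group 2b replicate 1, 2, 3, 4 or 6 (adjusted p from 0.0514 to 0.108).

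Genes outside the IL names that belong to the same circuits were described by counts, to be read against 32.2% and 29.4% of all probes called higher and 6.5% and 10.5% called lower. Of 13 genes of JAK kinases, STAT factors and SOCS brakes, which carry and limit the signal of these receptors, 8 were higher within stage 2 and 10 between stages 3 and 1, and none was lower; the medians were 0.81 and 0.63 (0.23 and 0.14 for all probes), and with equal library medians 0.10 and -0.03. JAK3, the kinase bound to the common gamma chain, was higher as deposited by 1.36 ± 0.29 (limma, adjusted p = 0.00113) and 1.38 ± 0.31 (adjusted p = 0.00147). Of 13 shared receptor chains and cytokines without an IL name, 7 were higher and 2 lower within stage 2, and 5 and 2 between stages 3 and 1, with medians of 0.80 and 0.61 that were 0.087 and -0.047 with equal library medians. As deposited, IFNG, the product of type 1 helper and cytotoxic T cells, was higher by 1.51 ± 0.56 (limma, adjusted p = 0.0395) and 1.66 ± 0.59 (adjusted p = 0.0301), and LIF was lower by -1.94 ± 0.43 (adjusted p = 0.00139) and -1.88 ± 0.45 (adjusted p = 0.00255). Values of JAK3, IFNG and LIF under the other scalings are not given here. Of 17 signaling genes of the interleukin 1 and 17 receptors, 6 were higher and 1 lower in both comparisons, with medians of 0.18 and 0.05 that turned to -0.53 and -0.60. Of 10 factors of helper T cell lineages, 4 were higher within stage 2, and 2 were higher and 1 lower between stages 3 and 1, with medians of 0.22 and 0.33 that turned to -0.50 and -0.32 with equal library medians.

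Marker genes of the cells in these areas are given for comparison, again beside 32.2% and 29.4% of all probes called higher. Of 18 T cell genes, 17 were higher in both comparisons, with medians of 2.15 and 2.73 (1.44 and 2.07 with equal library medians), and of 14 genes of cytotoxic and natural killer cells 12 and 10 were higher. Of 17 B and plasma cell genes 13 and 10 were higher. Of 15 macrophage and monocyte genes 6 and 5 were higher and 0 and 1 lower, with medians of 0.54 and 0.36 that turned to -0.18 and -0.30 with equal library medians, and of 11 Langerhans and dendritic cell genes 4 and 4 were higher and 2 and 3 lower. Of 9 granulocyte and mast cell genes none was called within stage 2 and 2 were lower between stages 3 and 1, and of 6 keratinocyte genes 1 was lower within stage 2. The part of these cell types in the levels of the members was not tested.

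Within a kind of area, no member was called between stages. Between the tumor cell-rich groups (2a minus 1), limma called 0 of 60 members and 0.125% of all probes, and 14 members had an unadjusted p under 0.05, as did 114 of the 800 probes. Of those 14, 12 were negative, and as deposited all libraries of group 2a lay below all of group 1 for IL3, IL4 and IL26, beside 2.25% of all probes. IL3 and IL26 are near background. Divided by the factor of each library, the 3 ligands overlapped between groups 1 and 2a. Such values carry no correction for the amount of RNA counted in a library. The approximate counts were 7 to 10 and 6 to 8 for IL3, 14 to 22 and 10 to 17 for IL4, and 10 to 23 and 11 to 17 for IL26. The part of the scaling factor was not tested. IL4 had the smallest p of the members (-0.90 ± 0.26, adjusted p = 0.136), and IL7R (0.65 ± 0.28, adjusted p = 0.301) and IL18RAP (0.52 ± 0.23, adjusted p = 0.301) were the 2 positive ones. All 20 members with a mean from 20 to under 50 and all 7 under 20 had negative log2 fold changes, with medians of -0.46 and -0.42, beside -0.39 and -0.42 for all probes of these levels. Between the lymphocyte-rich groups (3 minus 2b), 0 members and 0.125% of all probes were called, and 1 member, IL5RA, had an unadjusted p under 0.05, as did 50 probes. No member was free of overlap between these groups, beside 0.5% of all probes.

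The test of whether the 2 comparisons between kinds of area differed called 0 of 60 members and 0% of all probes; 3 members and 57 probes had an unadjusted p under 0.05 (limma). These were IL4 (-1.35 ± 0.36, adjusted p = 0.396), IL18RAP (0.87 ± 0.32, adjusted p = 0.464) and IL29L (-0.78 ± 0.35, adjusted p = 0.584). Over the members without overlap between groups, 6 were higher and 3 lower within stage 2, beside 21.5% and 3.88% of all probes, and 6 were higher and 2 lower between stages 3 and 1, beside 18.2% and 5.25%.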

How the data were processed

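RNA of 21 FFPE CCH libraries was counted on the nCounter Canine IO Panel. Per the labels and methods, the authors ran quality control and normalization in nSolver at default settings and tested with a plug-in on R 3.3.2; the deposited signal is a normalized count, and 18 values in 4 libraries stood at 1. Each library's scaling factor was read as the step between low values (tolerance 0.012); whole counts were not certain enough in every library for a count model. All 60 members matched RefSeq symbols (UU_Cfam_GSD_1.0).

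All 800 probes were fitted with limma 3.58.1 in R 4.3.3 on log2(value + 1), with 4 group means and a trended eBayes, two-sided, with a call at adjusted p values up to 0.05. Lists are given by counts and medians, with no set test. Members and lists were chosen with earlier results of these data known. Named are the members called, those without overlap between groups 2b and 2a, those with a mean under 20, and a list of ligands with their receptors. Replicate numbers did not pair libraries. Alternatives were other pseudocounts, filters, scalings and sets of libraries. The fit was tested on simulated data. Intervals cover the spread between libraries.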

Additional observations from a re-analysis of the deposited data

Results flagged for a closer look

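In 13 of 212 sets of member and group, the highest or lowest library stood farther from the others than the 95% limit of Dixon's test for that number of libraries; about 1 in 20 sets would be expected by chance. In group 1, replicate 1 was the lowest for IL15 (480.3, others from 894 to 1114), IL22RA2 (22.22, others from 43.6 to 56.0) and IL23R (8.46, others from 42.2 to 78.0), replicate 2 was the highest for IL4R (261.21, others from 155 to 163) and IL17F (61.06, others from 23.3 to 30.3), and replicate 3 was the lowest for IL6R (71.6). In group 2a, IL18R1 was highest in replicate 3 (715.92), IL2RB in replicate 5 (447.24), and IL9 lowest in replicate 2 (11.17). In group 2b, IL17A was lowest in replicate 4 (14.47) and IL4R in replicate 3 (235.46). In group 3, replicate 3 was the lowest for IL2RB (587.21) and the highest for IL32 (153.28).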

How the results depend on the processing

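With equal library medians (median shift), members called higher and lower within stage 2 numbered 4 and 25, and with quantile normalization 5 and 11, against 10 and 6 as deposited; between stages 3 and 1 they numbered 5 and 34, and 5 and 20, against 8 and 7. With only the single-dog libraries of group 2b, 5 and 2 were called within stage 2, from fewer libraries. Leaving out each library in turn gave 8 to 11 higher and 4 to 7 lower within stage 2, and 7 to 9 higher and 3 to 8 lower between stages 3 and 1, the 3 without group 1 replicate 5; the 3 other comparisons stayed at 0. Of the 60 members, 22 turned direction with the median shift and 14 with quantile normalization within stage 2, and 11 and 9 between stages 3 and 1. These included IL4 within stage 2 (-0.11 with the median shift), IL2 within stage 2 (-0.23 with the median shift, -0.20 with quantile normalization) and between stages 3 and 1 (-0.42 and -0.33), IL4R between stages 3 and 1 (-0.069 and -0.054), IL18RAP there (-0.45 and -0.41) and IL18 there with the median shift (-0.17). Same-numbered libraries did not deviate together (median r 0.0606 over 30 pairs, 0.00985 over 135 others), and the replicate block gave 10 higher and 6 lower within stage 2 and 7 and 7 between stages 3 and 1. Other settings (pseudocount of 10, mean of at least 20, no trend, only the groups compared, pools only) kept every count within 1.5 times its value. edgeR and DESeq2 were not run, since whole counts could not be recovered with certainty in every library. Members near background carry few counts, and pools can narrow the spread of group 2b.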

Other observations

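Some members are neighbors in the RefSeq annotation of the UU_Cfam_GSD_1.0 assembly, with values that differ between neighbors. IL21R and IL4R have 0 protein-coding genes between them and log2 fold changes of 2.31 and 0.77 within stage 2. IL12RB2 and IL23R also have 0 between them, with 0.49 and 1.36. IL21 and IL2 have 1 between them, with 2.02 and 0.48. IL10, IL19 and IL24 lie in a row with 1 gene in each gap, and had log2 fold changes of -1.41, -0.23 and -0.90 between stages 3 and 1. These are values without a test.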
